A study of Homo sapiens and Mus musculus with 18 samples.

Results

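NPHS1, PODXL, PTPRO, SYNPO and CD2AP are 5 genes best known from the podocyte, the kidney cell that forms the blood filter. They were followed here through every human group of a study of mesothelium grown from embryonic stem cells. They are 5 of 66733 human gene IDs counted in the series. The 5 genes were picked by name with their levels in these libraries already known. Their levels and differences are therefore given as a description, with no test. Tests are given only for a wider set of 82 other podocyte genes, of which 81 were found in the files. That set was also chosen with earlier results of these data known, so its shares of called genes are a description too.

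Podocytes wrap the capillaries of the glomerulus with interlocking foot processes. The gaps between foot processes are bridged by the slit diaphragm, a junction built on nephrin, which NPHS1 encodes. CD2AP encodes an adaptor that ties nephrin to the actin cytoskeleton. PODXL encodes podocalyxin, a heavily sialylated mucin-like protein that coats the apical surface and keeps foot processes apart, and is also known from mesothelium, endothelium and pluripotent stem cells. PTPRO encodes a receptor-type tyrosine phosphatase of the same apical surface. SYNPO encodes synaptopodin, an actin-associated protein of foot processes and of dendritic spines. Mesothelium, the sheet that lines the body cavities and covers the organs, is like the podocyte an epithelium that expresses the transcription factor WT1.

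All human cells came from WA09, 1 established human embryonic stem cell line, by way of splanchnic mesoderm. MesoT-derived MLC were MesoT cells replated in the medium used for mesothelium-like cells (MLC), which held 20 µM SB431542, an inhibitor of TGF-beta receptors, and 4 µM retinoic acid. MLC were made with the same additions, without FGF2 or activin A, straight from splanchnic mesoderm. MesoT FCS were MesoT cells at passage 4 in 10% fetal bovine serum with 8 ng/ml FGF2. The library labelled smooth muscle came from splanchnic mesoderm left in culture. MesoT at day 22 and at day 18, to which the others were compared, was mesothelium made with 25 ng/ml WNT3A, 50 ng/ml BMP4 and 4 µM retinoic acid. There was 1 library of smooth muscle and 2 of every other group. The labels do not say whether replicates were separate cultures, so that p-values measure the spread between these samples, which may be technical.

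The counts came in 2 sets that were normalised apart, because day 18 stands in both with unequal counts. The 7 single-library files held MLC, MesoT FCS, smooth muscle and MesoT day 18, and the human table held MesoT-derived MLC, MesoT day 22 and MesoT day 18 in 6 columns. Totals lay between 21148477 and 70679258 counts, with MLC at 70679258 and 65709545. Mitochondrial genes took 6.84% and 7.76% of the MLC counts, against 2.48% to 3.42% in the other single-library files and 2.66% to 4.40% in the table. Of 14 mesothelial markers, 9 and 10 reached 10 CPM (counts per 1000000 counts) in MesoT-derived MLC, 8 and 8 in MLC, 6 and 4 in MesoT FCS, 5 in smooth muscle, and 7 to 9 in MesoT. Their summed levels ordered the groups otherwise. In the single-library files they were 3724 and 2915 CPM in MLC, 6303 and 3127 CPM in MesoT FCS, and 5207 CPM in smooth muscle. MesoT day 18 had 4677 and 2847 CPM there. In the table the sums were 5033 and 5423 CPM in MesoT-derived MLC and 2676 to 4513 CPM in MesoT. In the library labelled smooth muscle, 7 of 8 markers of stratified epithelium reached 10 CPM, with a summed level of 2893 CPM against 12.3 to 16.8 CPM in MesoT day 18, and its ACTA2 level lay inside the MesoT range. All levels below are CPM after TMM scaling. CPM is not corrected for gene length, so levels are compared between libraries and not between genes. In bulk RNA, fewer expressing cells and less RNA per cell cannot be told apart.

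The stretches upstream of NPHS1, SYNPO and CD2AP are shown because these genes took 3 unlike courses through the groups. NPHS1 differed most between groups of the human table, SYNPO varied most between replicates of MesoT, and CD2AP was the flattest. Each sequence holds the 250 bases before an annotated start, 5′ to 3′ on the strand of the gene, from RefSeq on GRCh38.p14. NPHS1 lies at chr19:35852505-35852754 on the minus strand. SYNPO start 1 lies at chr5:150600826-150601075, SYNPO start 2 at chr5:150640410-150640659 and CD2AP at chr6:47477539-47477788, all on the plus strand. Capitals mark matches on either strand to 4 motifs: CANNTG (the E-box), GCGNGGGNG (letters known to be bound by WT1 and EGR proteins), TATAAA and the CArG box of serum response factor.
NPHS1: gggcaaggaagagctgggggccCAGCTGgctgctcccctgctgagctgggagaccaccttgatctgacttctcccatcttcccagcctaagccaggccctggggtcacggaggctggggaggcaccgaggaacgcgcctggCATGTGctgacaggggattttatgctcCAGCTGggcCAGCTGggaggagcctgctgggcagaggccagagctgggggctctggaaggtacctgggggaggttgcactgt
SYNPO start 1: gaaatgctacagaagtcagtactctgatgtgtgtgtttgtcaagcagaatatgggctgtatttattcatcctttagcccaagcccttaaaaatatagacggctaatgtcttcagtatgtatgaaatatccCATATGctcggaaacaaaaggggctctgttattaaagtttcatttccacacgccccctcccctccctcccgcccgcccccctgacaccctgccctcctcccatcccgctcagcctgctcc
SYNPO start 2: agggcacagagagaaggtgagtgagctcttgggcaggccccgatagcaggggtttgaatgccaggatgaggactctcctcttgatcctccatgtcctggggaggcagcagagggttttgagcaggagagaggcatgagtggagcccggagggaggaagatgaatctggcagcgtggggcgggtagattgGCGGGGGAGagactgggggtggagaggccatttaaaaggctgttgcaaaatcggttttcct
CD2AP: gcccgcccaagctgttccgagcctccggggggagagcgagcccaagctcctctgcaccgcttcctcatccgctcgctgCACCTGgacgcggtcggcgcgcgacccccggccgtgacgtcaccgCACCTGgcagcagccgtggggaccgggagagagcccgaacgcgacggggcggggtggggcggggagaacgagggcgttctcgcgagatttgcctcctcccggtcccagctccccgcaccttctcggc
The NPHS1 stretch held 4 matches to CANNTG and none to the other motifs, at 65.6% G and C. SYNPO start 1 held 1 match to CANNTG at 49.2% G and C, SYNPO start 2 held 1 match to GCGNGGGNG at 58% G and C, and CD2AP held 2 matches to CANNTG at 73.6% G and C. Of 35116 RefSeq stretches of the same length, 61.8% held CANNTG, 17.0% GCGNGGGNG, 10.7% TATAAA and 1.16% a CArG box. These are matches of letters, not sites. PTPRO has 2 starts in the same table, which are not printed, and PODXL has no entry there.

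NPHS1 (ENSG00000161270, chromosome 19), the structural core of the slit diaphragm, was in the human table highest in MesoT-derived MLC. It had 67.2 and 83.4 CPM in MesoT-derived MLC, 3.93 and 4.79 CPM in MesoT day 22, and 3.77 and 4.91 CPM in MesoT day 18 of the human table. Both MesoT-derived MLC libraries stood far above all 4 MesoT libraries, which overlapped between the days. The mean was 75.3 ± 11.5 CPM (SD, n = 2) in MesoT-derived MLC against 4.35 ± 0.585 CPM (SD, n = 4) in MesoT, taken over the 2 libraries of each day. The fitted log2 fold change was 4.11 ± 0.20 (SE), or 17.3-fold. Over the genes tested, same-numbered libraries of days 22 and 18 deviated together (r = 0.557). The 4 MesoT libraries may therefore not be 4 independent samples.

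In the single-library files NPHS1 was low throughout. It had 1.33 and 2.08 CPM in MLC (101 and 146 counts), 0.0446 and 0.0558 CPM in MesoT FCS (1 count each), 0.570 CPM in the library labelled smooth muscle (14 counts), and 0.258 and 0.307 CPM in MesoT day 18 (8 and 9 counts). The groups did not overlap and ran in the order MLC, smooth muscle, MesoT day 18 and MesoT FCS. MLC against MesoT day 18 gave a log2 fold change of 2.58 ± 0.52. NPHS1 in MesoT FCS was 0.176 of its MesoT day 18 level, where the 2 counts allow 0.0197 to 0.741 (95% interval, for counting error only).

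The NPHS1 levels depended on which counting was used. For the same labelled day 18 samples, NPHS1 was 9.62-fold and 11.7-fold higher in the human table than in the single-library files, while the other 4 genes lay within 1.03-fold in both replicates. When the table's day 18 counts were put in place of the single-library ones, the NPHS1 difference of MLC to day 18 turned to a log2 fold change of -1.01, and that of the smooth muscle library to -2.60, against 1.00 ± 0.64 with the single-library counts. The values of -1.01 and -2.60 set 1 counting against the other, so they carry the gap between the countings given above. They cannot be read as differences between the groups. For the same reason, the NPHS1 level of MLC cannot be set beside that of MesoT-derived MLC. Among 76 other podocyte genes with enough counts to compare, 68 were counted alike in the 2 sets, meaning within 0.5 log2 in both replicates, and 8 were not. Over all genes compared, 57.86% were counted alike. LMX1B, a podocyte transcription factor, was 21.6-fold and 27.6-fold higher in the table, SYNPO2L 9.51-fold and 4.04-fold, and KIRREL3 6.71-fold and 1.71-fold.

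**Figure D1:**
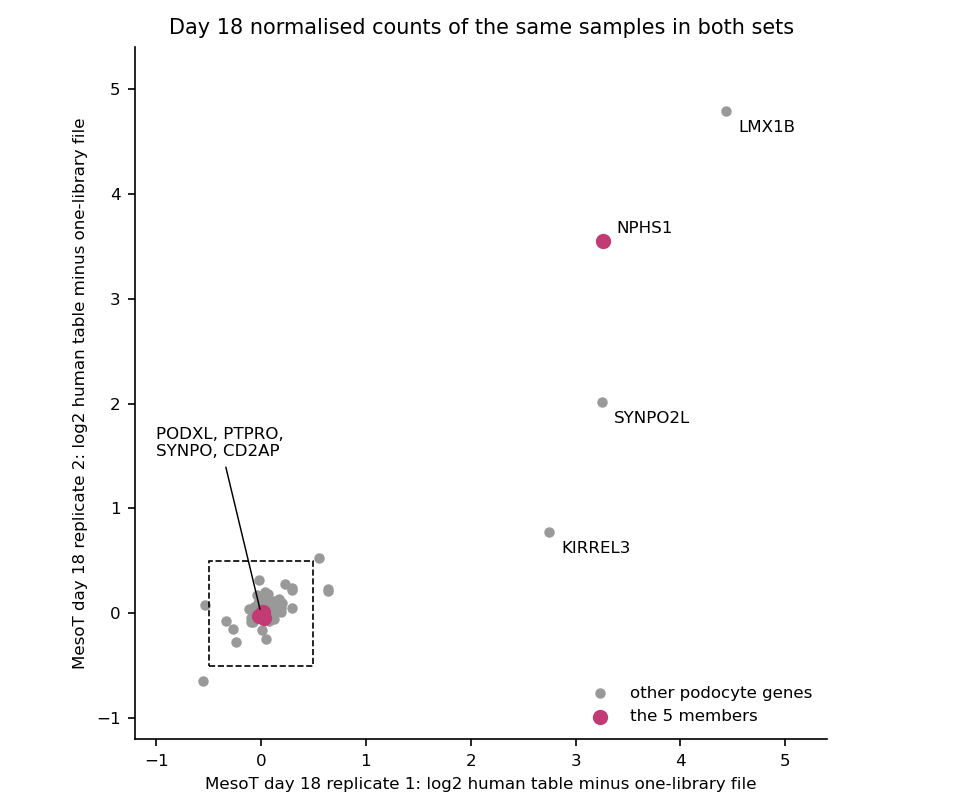
Log2 of the day 18 level in the human table minus that in the single-library files, replicate 1 on the horizontal and replicate 2 on the vertical axis, for the 5 genes and the other podocyte genes; the dashed box marks 0.5 log2 either way. NPHS1 lies far outside the box, with LMX1B, SYNPO2L and KIRREL3, while PODXL, PTPRO, SYNPO and CD2AP lie near its centre.

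NPHS1 overlaps KIRREL2 on chromosome 19 in the RefSeq annotation. KIRREL2 encodes another nephrin-like adhesion molecule, and the strand setting of the counting is not given in the sources used here, so reads of the 2 genes cannot be told apart with certainty. KIRREL2 had 57.3 and 49.7 CPM in MesoT-derived MLC, 0.599 and 3.27 CPM in MesoT day 22, and 1.63 and 2.13 CPM in MesoT day 18. In the single-library files it had 4.29 and 4.11 CPM in MLC, 0.491 and 0.112 CPM in MesoT FCS, 3.50 CPM in smooth muscle, and 1.45 and 1.78 CPM in MesoT day 18. Its order of groups in the single-library files was the same as that of NPHS1, and unlike NPHS1 it was counted alike at day 18.

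**Figure D2:**
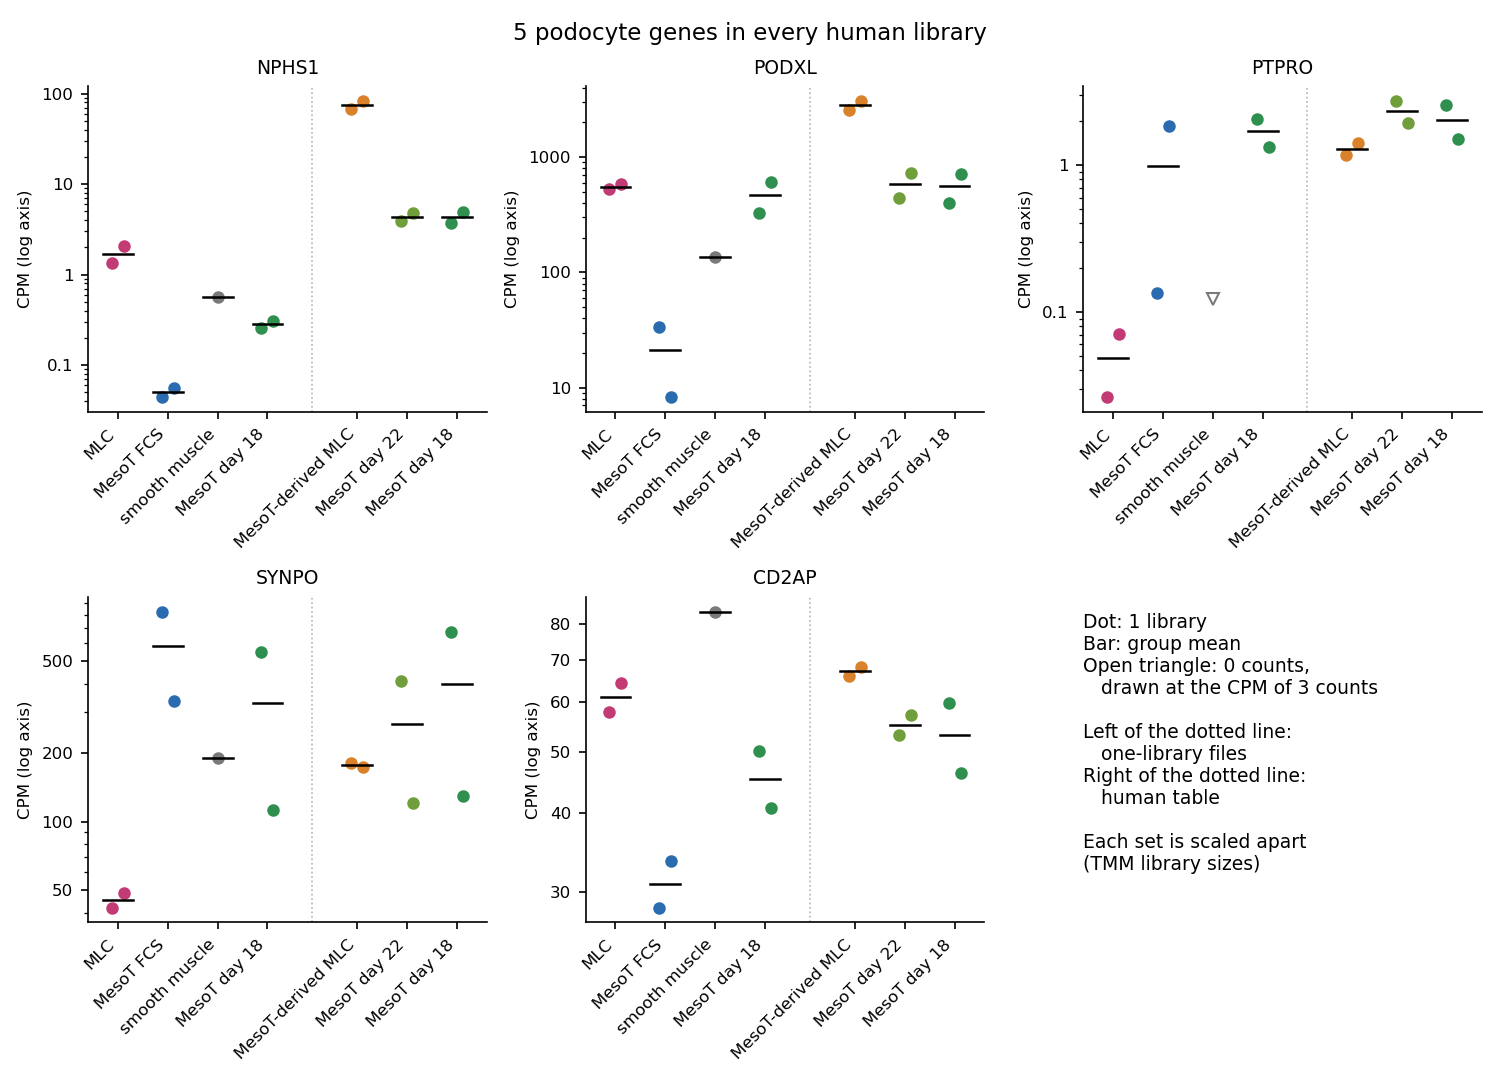
CPM of NPHS1, PODXL, PTPRO, SYNPO and CD2AP in each library on a log axis, the single-library files and the human table drawn apart; each point is 1 library, and an open triangle marks 0 counts, drawn at the CPM of 3 counts. In the human table NPHS1 and PODXL are highest in MesoT-derived MLC (67.2 and 83.4 CPM, 2585 and 3085 CPM), while CD2AP stays between 28.3 and 83.6 CPM throughout.

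CD2AP (ENSG00000198087, chromosome 6), the adaptor below the slit diaphragm, varied least of the 5 genes. It had 66.0 and 68.3 CPM in MesoT-derived MLC, 53.4 and 57.2 CPM in MesoT day 22, and 60.0 and 46.4 CPM in MesoT day 18 of the table. In the single-library files it had 57.9 and 64.4 CPM in MLC, 28.3 and 33.5 CPM in MesoT FCS, 83.6 CPM in smooth muscle, and 50.2 and 40.7 CPM in MesoT day 18. MesoT FCS was the lowest group and the smooth muscle library the highest, with no overlap between neighbouring groups there, whereas days 22 and 18 overlapped. The log2 fold change was 0.31 ± 0.16 for MesoT-derived MLC against MesoT, 0.43 ± 0.18 for MLC against MesoT day 18, and -0.55 ± 0.18 for MesoT FCS against MesoT day 18.

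PODXL (ENSG00000128567, chromosome 7), the apical sialomucin, was highest in MesoT-derived MLC within the human table and lowest in MesoT FCS within the single-library files. It had 2585 and 3085 CPM in MesoT-derived MLC, 443 and 722 CPM in MesoT day 22, and 402 and 712 CPM in MesoT day 18 of the table. The MesoT-derived MLC libraries stood above all MesoT libraries, and the 2 days overlapped. Means were 2835 ± 353 CPM (SD, n = 2) in MesoT-derived MLC and 569.7 ± 171 CPM (SD, n = 4) in MesoT, with a log2 fold change of 2.32 ± 0.33, or 4.98-fold.

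In the single-library files PODXL had 526 and 582 CPM in MLC, 33.8 and 8.32 CPM in MesoT FCS, 135 CPM in smooth muscle, and 327 and 609.6 CPM in MesoT day 18. MLC and MesoT day 18 overlapped, and their log2 fold change was 0.24 ± 0.63. MesoT FCS lay below every other library, with a log2 fold change to MesoT day 18 of -4.47 ± 0.73, and its own replicates were 33.8 and 8.32 CPM. PODXL is itself a gene of pluripotent and endothelial cells, so markers of both are given beside it. The 10 pluripotency markers summed to 76.4 to 138 CPM in MesoT-derived MLC against 121 to 249 CPM in MesoT of the table. In the single-library files they summed to 260.5 and 282 CPM in MLC and 31.6 and 36.6 CPM in MesoT FCS. Their sums there were 160 CPM in smooth muscle, and 91.6 and 181 CPM in MesoT day 18. Endothelial markers summed in these files to 143 and 185 CPM in MLC and 115 and 61.8 CPM in MesoT FCS. Sums for them were 108 CPM in smooth muscle, and 302 and 144 CPM in MesoT day 18. The 12 endothelial markers summed to 208 to 241 CPM in MesoT-derived MLC against 154 to 375 CPM in MesoT of the table. Of these, KDR had 128 and 198 CPM in MesoT-derived MLC against 56.6 to 303 CPM in MesoT, CDH5 had 30.4 and 1.81 CPM against 0.633 to 8.28 CPM in MesoT, and PECAM1 was listed at 0 in every library, those with KDR and CDH5 included. The part of these markers in the PODXL levels was not tested.

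PTPRO (ENSG00000151490, chromosome 12), the apical phosphatase, was low in every group. It had 1.16 and 1.4 CPM in MesoT-derived MLC (34 and 41 counts), 2.73 and 1.92 CPM in MesoT day 22, and 2.55 and 1.5 CPM in MesoT day 18 of the table. In the single-library files it had 0.0264 and 0.0712 CPM in MLC (2 and 5 counts), 0.134 and 1.84 CPM in MesoT FCS (3 and 33 counts), 0 counts in smooth muscle, and 2.06 and 1.33 CPM in MesoT day 18 (64 and 39 counts). PTPRO was lower in both kinds of MLC than in MesoT, without overlap in either set. The log2 fold change was -5.04 ± 1.27 for MLC against MesoT day 18 and -0.76 ± 0.35 for MesoT-derived MLC against MesoT. The smooth muscle library was at least 14.0-fold lower than MesoT day 18, by the bound of 3 counts. The 2 MesoT FCS libraries spanned the MesoT day 18 level, so the log2 fold change of -0.81 ± 1.05 was smaller than its error, and it became -3.63 without MesoT FCS replicate 2.

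SYNPO (ENSG00000171992, chromosome 5), the actin-associated protein, differed widely between the replicates of MesoT and of MesoT FCS, but not between those of either kind of MLC. It had 181 and 174 CPM in MesoT-derived MLC, 413 and 120.3 CPM in MesoT day 22, and 671 and 129 CPM in MesoT day 18 of the table. In the single-library files it had 42.1 and 48.8 CPM in MLC, 826 and 337 CPM in MesoT FCS, 189 CPM in smooth muscle, and 549 and 112 CPM in MesoT day 18. Replicate 1 of day 18 was 4.90-fold above replicate 2 in the single-library files and 5.22-fold in the table. All neighbouring groups of the table overlapped, and in the single-library files MLC alone lay below every other group. The log2 fold change of MLC against MesoT day 18 was -2.86 ± 0.80 and became -1.21 without MesoT day 18 replicate 1. MesoT-derived MLC against MesoT gave -0.88 ± 0.75, and MesoT FCS against MesoT day 18 gave 0.81 ± 0.75.

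ACTA2 and TAGLN, contractile markers of smooth muscle, were like SYNPO lowest in MLC among the single-library files. ACTA2, smooth muscle alpha-actin, had 10.3 and 12.5 CPM in MLC, 1829 and 264 CPM in MesoT FCS, 268 CPM in smooth muscle, and 515 and 80.6 CPM in MesoT day 18. TAGLN, an actin-binding protein of smooth muscle, had 37.3 and 25.1 CPM in MLC, 3455 and 1053 CPM in MesoT FCS, 599.9 CPM in smooth muscle, and 922 and 131 CPM in MesoT day 18. For both genes, replicate 1 of MesoT FCS and of MesoT day 18 was the higher one, as for SYNPO. In the table ACTA2 had 39.0 and 45.3 CPM in MesoT-derived MLC, 539.6 and 69.5 CPM in MesoT day 22, and 432 and 69.4 CPM in MesoT day 18. There ACTA2 of MesoT-derived MLC lay below all 4 MesoT libraries, whereas SYNPO lay between the MesoT replicates, and LMOD1, another of these markers, was at 24.5 and 97.0 CPM in MesoT-derived MLC against 11.3 to 37.1 CPM in MesoT. The 10 smooth muscle markers together summed to 224 to 241 CPM in MLC, 1805 to 7463 CPM in MesoT FCS, 1235 CPM in the smooth muscle library and 291 to 1690 CPM in MesoT day 18, with none of the 10 at 0. Of the 10, 6 and 6 reached 10 CPM in MLC, 9 and 8 in MesoT FCS, 8 in smooth muscle, and 8 and 5 in MesoT day 18. ACTA2 and TAGLN made up most of the sum in MesoT day 18 replicate 2, but not in MLC. Not all 10 markers were therefore lowest in MLC. The part of the 10 markers in the SYNPO levels was not tested.

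**Figure D3:**
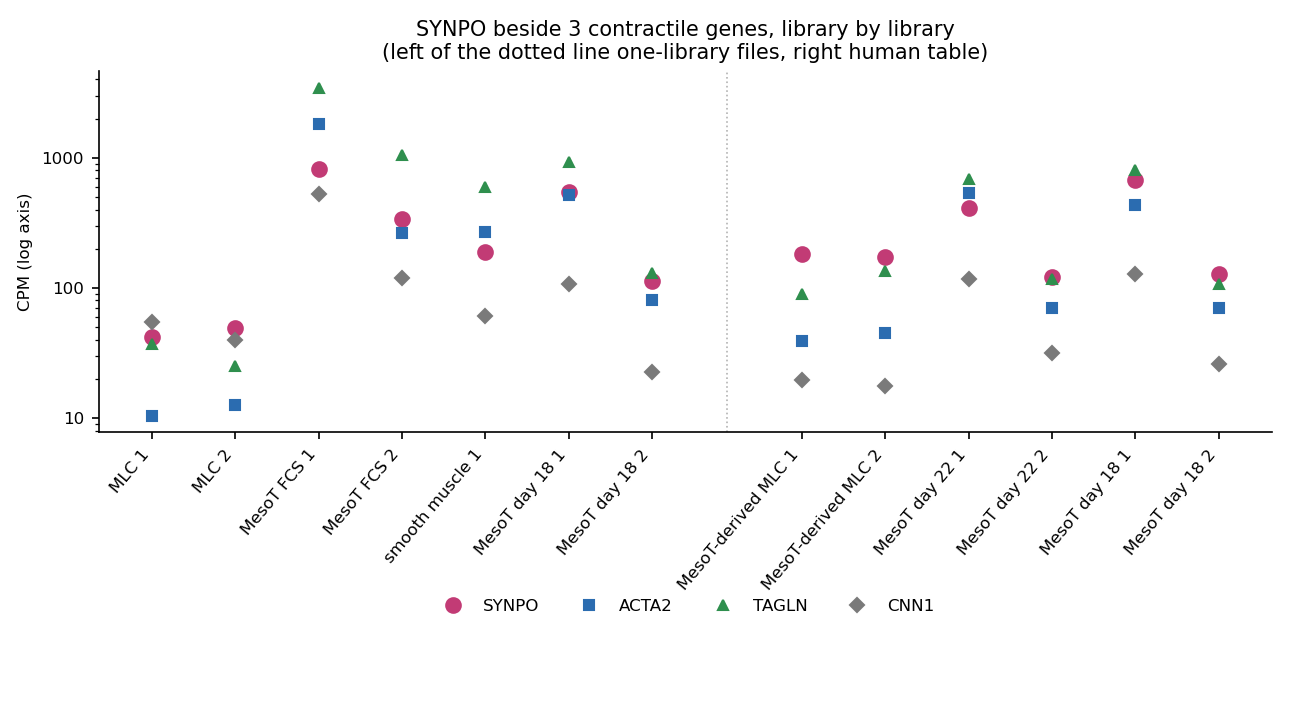
CPM of SYNPO beside the contractile genes ACTA2, TAGLN and CNN1 in each library, on a log axis, with the single-library files and the human table apart; each point is 1 library. Replicate 1 of MesoT day 18 stands above replicate 2 for SYNPO (549 and 112 CPM) and for ACTA2 (515 and 80.6 CPM), and of the single-library files both genes are lowest in MLC.

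The genes whose levels ran most like those of 3 of the 5 were sought among 10064 genes by Pearson's r of log2 CPM, taking the smaller of the value over the 7 single-library files and that over the 6 table columns. Only genes with a symbol that were tested in both sets and had a mean log2 CPM of at least 3 in both were searched. The libraries of a set share their replicates and their group structure, so r is a description. Among the genes searched, PODXL ran most like FRMD4B (r = 0.980 and 0.993), NSG1 (0.973 and 0.958) and PARD6B (0.953 and 0.981). The last is a polarity gene of the slit diaphragm list. Outside that search, the mesothelial marker UPK3B gave 0.968 and 0.994 with PODXL, and LRRN4, another such marker, 0.608 and 0.937. SYNPO ran most like FAM43A (0.976 and 0.953), CDIP1 (0.982 and 0.953) and RAI14 (0.959 and 0.949). CD2AP ran most like TMC6 (0.956 and 0.962), ESCO1 (0.965 and 0.954) and CERS4 (0.949 and 0.957). NPHS1 and PTPRO were too low in the single-library files for this search.

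The other 82 podocyte genes were sorted into 6 lists, for the slit diaphragm and its adaptors, the apical domain, foot process actin, transcription factors, adhesion and basement membrane, and signals and antigens. Each comparison was fitted over all genes of its set, and the comparisons within a set share the MesoT day 18 libraries. Calls are edgeR quasi-likelihood tests with a Benjamini-Hochberg adjusted p under 0.05. The lists were chosen with earlier results of these data known, so their shares are set beside all genes as a description. Of the 51 genes of these lists named by the rule, 30 overlap another annotated gene, among them WT1 (WT1-AS), EZR (EZR-AS1), FOXC2 (FOXC2-AS1), BMP7 (BMP7-AS1), LAMA5 (LAMA5-AS1), LAMC1 (LAMC1-AS1), NHERF1 (SLC9A3R1-AS1) and RHPN1 (RHPN1-AS1), whose reads cannot be told apart without strand.

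MesoT-derived MLC had more podocyte genes higher than lower against MesoT. Among those that rose were CRB2, PARD6B, PARD3 and KIRREL2 of the slit diaphragm, EZR and NHERF1 of the apical domain, WT1, LAMA5, DAG1 and AGRN, while FOXC1 and FOXC2 fell. Of 77 listed genes tested, 19 rose and 4 fell, or 24.7% and 5.19%, where 6.63% of all 22316 genes tested rose and 3.32% fell. The median log2 fold change was 0.57 over the listed genes and -0.05 over all genes, and all 23 called genes were counted alike at day 18. The count rested on single libraries: without MesoT-derived MLC replicate 2 no listed gene was called (28 higher and 5 lower at an unadjusted p under 0.05), and without MesoT day 22 replicate 1 none was called either (33 and 6). Without MesoT-derived MLC replicate 1 there were 6 higher and 1 lower, and without MesoT day 22 replicate 2 there were 5 and 1. Against MesoT day 18 alone there were 9 higher and 1 lower, and by DESeq2 32 and 8. The tests take the 4 MesoT libraries as independent, which they may not be, as given above.

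Of 19 slit diaphragm genes tested in this comparison, 5 rose. None fell in this, the apical or the adhesion list, whether by edgeR, at an unadjusted p under 0.05, by DESeq2 or by limma voom. CRB2, an apical polarity protein, had 519 and 536 CPM in MesoT-derived MLC, 25.9 and 56.3 CPM in MesoT day 22, and 79.9 and 48.6 CPM in MesoT day 18, and so rose by 3.36 ± 0.35 on the log2 scale (edgeR adjusted p = 0.0129). KIRREL2, with the values given above, rose by 4.81 ± 0.56 on the log2 scale (edgeR adjusted p = 0.0150). PARD6B, a subunit of the polarity complex, averaged 89.2 ± 27.2 CPM in MesoT-derived MLC against 26.6 ± 4.66 CPM in MesoT (edgeR adjusted p = 0.0187). PLCE1, a phospholipase mutated in nephrotic syndrome, averaged 48.8 ± 12.2 CPM against 14.4 ± 5.62 CPM in MesoT (edgeR adjusted p = 0.0315). PARD3, another subunit of that complex, averaged 146 ± 0.465 CPM against 95.3 ± 7.73 CPM in MesoT (edgeR adjusted p = 0.0479). KIRREL1, the nephrin partner also called NEPH1, averaged 581 ± 98.3 CPM against 318 ± 84.9 CPM in MesoT and missed the threshold (adjusted p = 0.0977), and so did TJP1, which encodes ZO-1, at 336 ± 25.4 CPM against 283 ± 12.6 CPM in MesoT (adjusted p = 0.350).

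**Figure D4:**
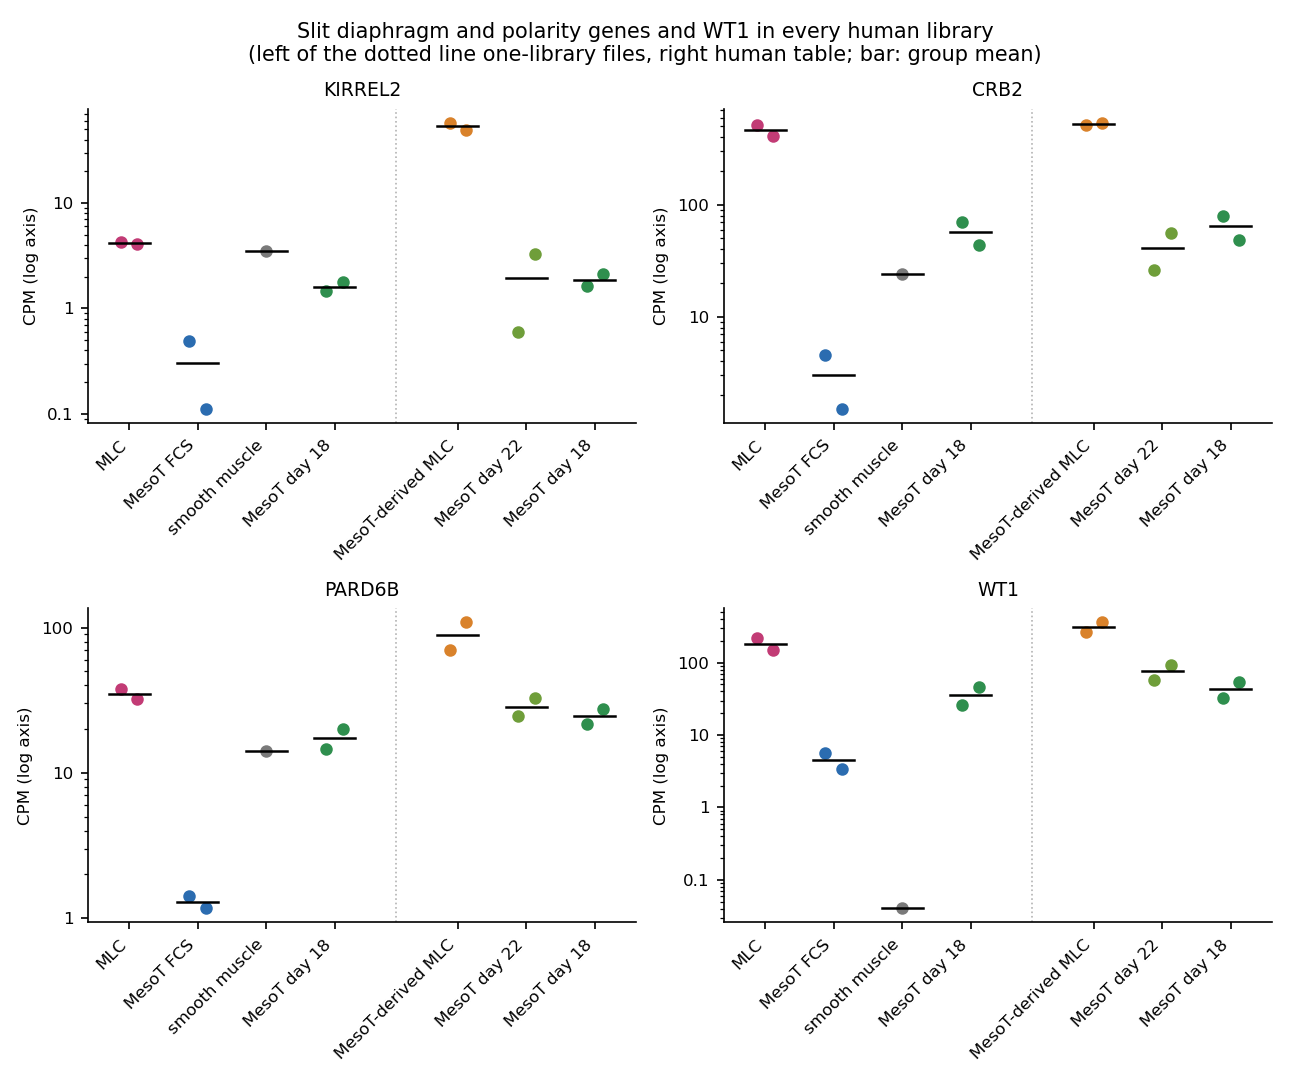
CPM of KIRREL2, CRB2, PARD6B and WT1 in each library, on a log axis, with the single-library files and the human table apart; each point is 1 library. All 4 genes are higher in both MesoT-derived MLC libraries than in the 4 MesoT libraries of the table, and CRB2 (4.55 and 1.51 CPM) and PARD6B (1.43 and 1.17 CPM) are, of the single-library files, lowest in MesoT FCS.

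Of 9 apical genes, 4 rose in MesoT-derived MLC. Ezrin and the NHERF scaffolds link podocalyxin to actin. EZR averaged 794 ± 16.1 CPM in MesoT-derived MLC against 369 ± 62.9 CPM in MesoT (edgeR adjusted p = 0.0370), and NHERF1 251 ± 4.95 CPM against 72.6 ± 28.6 CPM in MesoT (edgeR adjusted p = 0.0235). The EZR call was lost under 7 alternative settings and the NHERF1 call under 5. NHERF2, at 57.6 ± 7.44 CPM against 38.3 ± 1.01 CPM in MesoT, missed the threshold (adjusted p = 0.0561). PDPN, which encodes podoplanin, a mucin-like protein of podocytes and mesothelium, rose by 1.95 ± 0.23 on the log2 scale (edgeR adjusted p = 0.0160), and RHPN1, a rhophilin, by 2.06 ± 0.32 (edgeR adjusted p = 0.0230).

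Of 16 foot process actin genes, 3 rose and 1 fell in MesoT-derived MLC. INF2, an actin-nucleating formin, rose by 2.03 ± 0.19 on the log2 scale (edgeR adjusted p = 0.0122), and ANLN, the actin-binding anillin, by 1.54 ± 0.20 (edgeR adjusted p = 0.0179). CLIC5, a partner of ezrin, rose by 5.18 ± 0.64 (edgeR adjusted p = 0.0168), with 19.9 and 100.5 CPM in MesoT-derived MLC against a mean of 1.75 ± 0.882 CPM in MesoT. SYNPO2, a relative of SYNPO known from muscle, averaged 12.1 ± 4.70 CPM in MesoT-derived MLC against 48.6 ± 10.2 CPM in MesoT (edgeR adjusted p = 0.0267). ACTN4, the alpha-actinin of foot processes, had 520.4 ± 70.7 CPM against 449 ± 139.6 CPM in MesoT (adjusted p = 0.692).

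Of 8 podocyte transcription factors tested, 2 rose and 2 fell in MesoT-derived MLC. WT1 had 269 and 359.8 CPM in MesoT-derived MLC, 56.9 and 94.3 CPM in MesoT day 22, and 32.4 and 54.6 CPM in MesoT day 18, a rise of 2.45 ± 0.30 on the log2 scale (edgeR adjusted p = 0.0162). KLF15 averaged 8.29 ± 0.760 CPM against 1.36 ± 0.505 CPM in MesoT (edgeR adjusted p = 0.0142). FOXC2 averaged 0.922 ± 0.530 CPM against 16.1 ± 4.71 CPM in MesoT (edgeR adjusted p = 0.0145), and FOXC1 7.06 ± 1.51 CPM against 25.3 ± 8.55 CPM in MesoT (edgeR adjusted p = 0.0164). TCF21, at 8.10 ± 2.94 CPM in MesoT-derived MLC against 13.7 ± 11 CPM in MesoT, missed the threshold (adjusted p = 0.455), and LMX1B did too (adjusted p = 0.610).

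Of 13 adhesion and basement membrane genes, 4 rose in MesoT-derived MLC. LAMA5, the laminin chain of the glomerular basement membrane, averaged 1144 ± 547 CPM in MesoT-derived MLC against 294 ± 53.8 CPM in MesoT (edgeR adjusted p = 0.0254). NPNT, which encodes nephronectin, averaged 469 ± 30.6 CPM against 105 ± 50.7 CPM in MesoT (edgeR adjusted p = 0.0206). DAG1, the laminin receptor dystroglycan, rose by 1.32 ± 0.17 on the log2 scale (edgeR adjusted p = 0.0183) and AGRN, which encodes agrin, by 1.21 ± 0.23 (edgeR adjusted p = 0.0323). ITGA3 and LAMB2 gave 1.63 ± 0.48 and 0.90 ± 0.26 and missed the threshold (adjusted p = 0.0829 and 0.0821). Of 12 signals and antigens, PTGDS rose by 4.08 ± 0.59 (edgeR adjusted p = 0.0213) and the axon guidance receptor ROBO2 fell by 2.41 on the log2 scale (SE 0.54, edgeR adjusted p = 0.0467), while VEGFA gave -0.62 ± 0.43 (adjusted p = 0.365).

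Levels of other cell type markers stood beside these genes. UPK3B, a mesothelial uroplakin, had 174 and 325 CPM in MesoT-derived MLC, 22.1 and 40.3 CPM in MesoT day 22, and 19.4 and 42.4 CPM in MesoT day 18 (edgeR adjusted p = 0.0204 against MesoT). Of 14 genes of nephron progenitors and tubule, 13 were measured and summed to 268 to 440 CPM in MesoT-derived MLC against 95.1 to 240.2 CPM in MesoT, with 2 to 3 and 2 to 4 of them at 0. Most of that sum was LRP2, the endocytic receptor megalin, at 200.2 and 414 CPM in MesoT-derived MLC against 56.4 to 189.6 CPM in MesoT, and EMX2 was called higher, at a mean of 26.7 CPM against 4.52 CPM in MesoT (edgeR adjusted p = 0.0397). PAX8 was at 0.205 and 0.684 CPM in MesoT-derived MLC. The 10 hepatocyte and gut markers summed to 100.0 and 307 CPM in MesoT-derived MLC, where none was at 0, against 2.66 to 6.82 CPM in MesoT. The part of these lists in the podocyte gene levels was not tested.

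**Figure D5:**
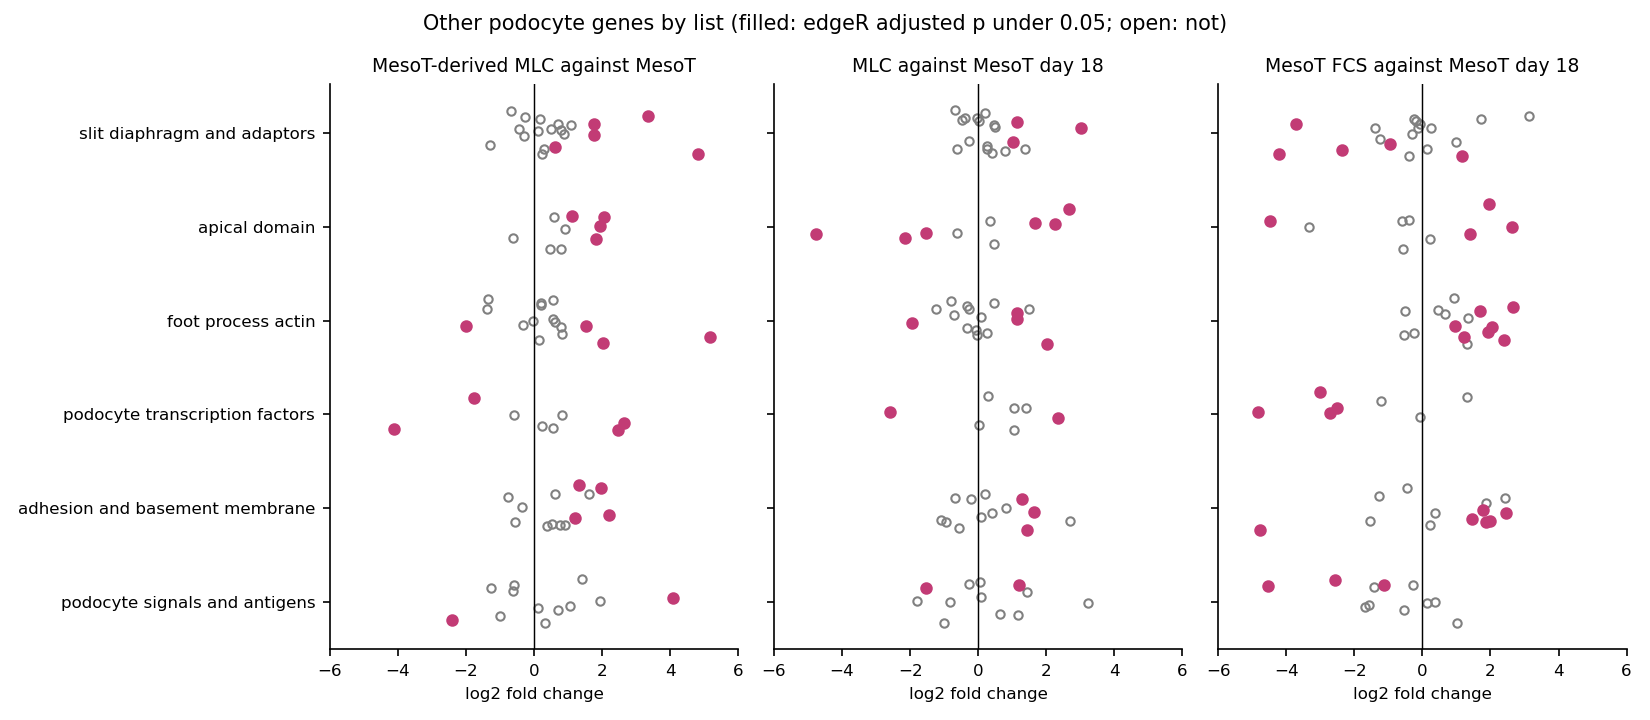
Log2 fold changes of the other podocyte genes by list, in 3 panels for MesoT-derived MLC against MesoT, MLC against MesoT day 18 and MesoT FCS against MesoT day 18; each point is 1 gene, filled where it passed the edgeR test, and genes with 3 or fewer counts in a group are not drawn. In MesoT-derived MLC 19 filled points lie above 0 and 4 below, in MLC 14 and 6.

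In MLC made straight from splanchnic mesoderm, CRB2, PARD6B, EZR, NHERF1, INF2, ANLN, LAMA5 and WT1 rose against MesoT day 18. The day 18 samples of this comparison are, by their labels, also among the MesoT samples of the one above. Against MesoT day 18, 14 of 78 listed genes rose and 6 fell, or 17.9% and 7.69%, where 7.83% of all 23049 genes tested rose and 16.8% fell. The median log2 fold change was 0.20 over the listed genes and -0.03 over all genes. Without MLC replicate 1 only ANLN, EZR and MME were called, and without MLC replicate 2 only ANLN, EZR, LAMC1, WT1, MME and INF2, with none lower in either (6 at an unadjusted p under 0.05 each). Without MesoT day 18 replicate 2, 18 rose and 11 fell. Both MLC libraries also had the highest total counts and mitochondrial shares, given above, and the part of these in the counts was not tested.

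Of 19 slit diaphragm genes 3 rose in MLC and none fell by edgeR, with 3 lower at an unadjusted p under 0.05, 1 by DESeq2 and 1 by limma voom. CRB2 had 520.1 and 409 CPM in MLC against 70.4 and 43.3 CPM in MesoT day 18 (edgeR adjusted p = 0.0102), and PARD6B had 37.9 and 32.2 CPM against 14.6 and 20.0 CPM in MesoT day 18 (edgeR adjusted p = 0.0305). SH3KBP1, the adaptor related to CD2AP, averaged 96.9 ± 7.59 CPM in MLC against 43.7 ± 2.1 CPM in MesoT day 18 (edgeR adjusted p = 0.0351). KIRREL2 gave a log2 fold change of 1.38 ± 0.54 and missed the threshold (adjusted p = 0.116), as did KIRREL1 and TJP1 (adjusted p = 0.231 and 0.311).

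The apical list was split in MLC, with 3 of 9 genes higher and 3 lower. EZR averaged 932 ± 76.1 CPM in MLC against 293 ± 16.7 CPM in MesoT day 18 (edgeR adjusted p = 0.00330), NHERF1 438 ± 7.65 CPM against 69.2 ± 25.7 CPM (edgeR adjusted p = 0.0119) and MME, which encodes neprilysin, 111 ± 17.9 CPM against 23 ± 5.13 CPM (edgeR adjusted p = 0.00278). NHERF2, a scaffold known to bind podocalyxin in podocytes, fell to 10.9 ± 1.88 CPM in MLC, against 31.3 ± 2.96 CPM in MesoT day 18 (edgeR adjusted p = 0.0125). PODXL2, a relative of PODXL, averaged 4.47 ± 0.0834 CPM in MLC against 20.0 ± 4.70 CPM in MesoT day 18 (edgeR adjusted p = 0.0128), and CD34, another relative, 0.0620 ± 0.0130 CPM against 1.78 ± 2.11 CPM (edgeR adjusted p = 0.0381). CD34 had 9 and 96 counts in MesoT day 18 replicates 1 and 2, and was not counted alike there. By limma voom, or with only the groups compared in the fit, CD34 was not called.

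Among 16 actin genes of MLC, INF2 rose by 1.13 ± 0.16 on the log2 scale (edgeR adjusted p = 0.00601), ANLN by 2.02 ± 0.29 (edgeR adjusted p = 0.00583) and NES, which encodes nestin, by 1.15 ± 0.29 (edgeR adjusted p = 0.0367). MYO1E, a class I myosin of foot processes, averaged 9.0 ± 0.910 CPM in MLC against 34.4 ± 20.5 CPM in MesoT day 18 (edgeR adjusted p = 0.0267), and ACTN4 gave -0.04 ± 0.37 (adjusted p = 0.95). Of 9 transcription factors WT1 rose, with 217 and 148 CPM in MLC against 25.9 and 46.2 CPM in MesoT day 18 (edgeR adjusted p = 0.00947), and FOXC2 fell to 3.08 ± 0.855 CPM, against 18.5 ± 5.47 CPM in MesoT day 18 (edgeR adjusted p = 0.00852). TCF21 gave 1.07 ± 0.68 (adjusted p = 0.296). LMX1B, with 2 and 3 counts in MesoT day 18 of the single-library files, was too low to be tested. With the 95 and 140 day 18 counts of the table it was called lower in MLC, in MesoT FCS and in the smooth muscle library. Those calls set 1 counting against the other, and the table's was 21.6-fold and 27.6-fold higher for the same labelled samples. They can therefore not be read as a difference between the groups.

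Of 13 adhesion genes of MLC, 3 laminin chains rose: LAMC1 by 1.44 ± 0.21 on the log2 scale (edgeR adjusted p = 0.00626), LAMA5 by 1.30 ± 0.21 (edgeR adjusted p = 0.00908) and LAMB2 by 1.65 ± 0.28 (edgeR adjusted p = 0.0100). ITGA3 gave 0.20 ± 0.56 (adjusted p = 0.823). Of 12 signals and antigens, the cell cycle inhibitor CDKN1C rose by 1.19 ± 0.25 (edgeR adjusted p = 0.0210) and the ligand BMP7 fell to 12.3 ± 5.44 CPM, against 35.6 ± 5.63 CPM in MesoT day 18 (edgeR adjusted p = 0.0400), with VEGFA at 0.05 ± 0.58 (adjusted p = 0.958). Beside these, the nephron and tubule markers summed to 286 to 312 CPM in MLC against 74.8 to 202 CPM in MesoT day 18. The hepatocyte and gut markers summed to 79.6 to 162 CPM against 8.86 to 13.8 CPM. Of the latter, VIL1 had the most day 18 counts, 251 and 334. It was not counted alike, with 34 and 56 in the table for the same labelled samples. The part of both lists was not tested.

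In MesoT FCS the polarity genes PARD6B and CRB2 and the transcription factors WT1, TCF21 and FOXC1 fell, while ACTN4, INF2 and ANLN of the actin list and AGRN, NID1 and LAMB2 of the matrix rose. Against MesoT day 18, 17 of 78 listed genes rose and 15 fell, or 21.8% and 19.2%, where 13% of all 23049 genes rose and 14.4% fell. The median log2 fold change was -0.16 over the listed genes and -0.16 over all genes. Without MesoT FCS replicate 1 there were 8 higher and 14 lower, and with only these 2 groups in the fit 10 were higher. The smooth muscle markers, which were higher in MesoT FCS replicate 1 as given above, ran beside the actin genes, and their part was not tested.

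Of 19 slit diaphragm genes 4 fell and 1 rose in MesoT FCS. PARD6B averaged 1.30 ± 0.181 CPM in MesoT FCS against 17.3 ± 3.83 CPM in MesoT day 18 (edgeR adjusted p = 0.00263), CRB2 3.03 ± 2.15 CPM against 56.9 ± 19.2 CPM (edgeR adjusted p = 0.00730) and TJP1 124 ± 2.24 CPM against 241 ± 30.6 CPM (edgeR adjusted p = 0.0154). KIRREL2 fell as well, by 2.36 on the log2 scale (SE 0.63, edgeR adjusted p = 0.0392). SH3KBP1 rose by 1.17 ± 0.29 (edgeR adjusted p = 0.0314), and KIRREL1 gave -0.07 ± 0.23 (adjusted p = 0.827). Of 9 transcription factors 4 fell and 1 rose, among them WT1, with 5.58 and 3.40 CPM in MesoT FCS against 25.9 and 46.2 CPM in MesoT day 18 (edgeR adjusted p = 0.00777), and TCF21, with 0.268 and 0.949 CPM against 25.9 and 7.89 CPM (edgeR adjusted p = 0.0138). FOXC1 fell by 2.71 on the log2 scale (SE 0.40, edgeR adjusted p = 0.00891). FOXD1, which rose, had 0 counts in MesoT day 18 and was at least 18.0-fold higher in MesoT FCS, at 0.848 ± 0.568 CPM.

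Of 16 actin genes 7 rose and 1 fell in MesoT FCS. ACTN4 averaged 1282 ± 212 CPM in MesoT FCS against 399.8 ± 194 CPM in MesoT day 18 (edgeR adjusted p = 0.0253), and INF2 and ANLN rose by 1.93 ± 0.17 and 2.39 ± 0.29 on the log2 scale (edgeR adjusted p = 0.00345 and 0.00615). CORO2B, a coronin, rose by 2.03 ± 0.38 (edgeR adjusted p = 0.0162). CLIC5 had 0 counts in MesoT FCS and was at least 15.4-fold lower. Of 9 apical genes, ARHGDIA, which is mutated in a form of nephrotic syndrome, averaged 1108 ± 141 CPM in MesoT FCS against 178 ± 66.0 CPM in MesoT day 18 (edgeR adjusted p = 0.00597). MME rose by 1.94 ± 0.26 (edgeR adjusted p = 0.00751) and NHERF2 by 1.4 ± 0.27 (edgeR adjusted p = 0.0172), and PDPN was the gene of this list that fell, to 2.89 ± 2.67 CPM in MesoT FCS, against 64.8 ± 8.05 CPM in MesoT day 18 (edgeR adjusted p = 0.00926). EZR and NHERF1 gave 0.22 ± 0.20 and -0.41 ± 0.44 (adjusted p = 0.430 and 0.512).

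Of 13 adhesion genes 5 rose and 1 fell in MesoT FCS. AGRN rose by 1.79 ± 0.28 on the log2 scale (edgeR adjusted p = 0.0100), NID1, which encodes nidogen, by 1.97 ± 0.31 (edgeR adjusted p = 0.0109), the tetraspanin CD151 by 2.47 ± 0.40 (edgeR adjusted p = 0.0112) and LAMB2 by 1.45 ± 0.27 (edgeR adjusted p = 0.0166). ITGB1, the beta-1 integrin, rose by 1.87 ± 0.49 (edgeR adjusted p = 0.0372). It was not counted alike at day 18, being 1.47-fold and 1.44-fold higher in the table. With the table's day 18 counts, or with only the groups compared in the fit, ITGB1 was not called. NPNT fell to 3.81 ± 2.31 CPM in MesoT FCS, against 106 ± 54.2 CPM in MesoT day 18 (edgeR adjusted p = 0.00589), and ITGA3 gave 1.86 ± 0.58 (adjusted p = 0.0594). Of 12 signals and antigens 4 fell by edgeR and by limma voom, and 6 by DESeq2 and at an unadjusted p under 0.05, and none rose by any of these. BMP7 had 0 counts in MesoT FCS and was at least 480-fold lower. ROBO2 fell by 4.53 (SE 0.54, edgeR adjusted p = 0.00595), PLA2R1, the main antigen of membranous nephropathy, by 2.56 (SE 0.33, edgeR adjusted p = 0.00678) and CDKN1C by 1.13 (SE 0.25, edgeR adjusted p = 0.0244).

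Set against each other, MLC and MesoT FCS differed in 43 of the 78 listed genes, with 26 higher and 17 lower in MLC, or 33.3% and 21.8%, where 22.6% of all 23049 genes were higher and 26.3% lower. The median log2 fold change was 0.25 over the listed genes and 0.00 over all genes. For the 5 genes the log2 fold change was 4.71 ± 0.74 for PODXL, -4.24 ± 1.27 for PTPRO, -3.68 ± 0.83 for SYNPO and 0.98 ± 0.19 for CD2AP, and NPHS1 was 34.1-fold higher (95% interval from counting alone, 9.35 to 283). CRB2 was 7.24 ± 0.63 higher on the log2 scale (edgeR adjusted p = 0.000691), PARD6B 4.74 ± 0.29 (edgeR adjusted p = 0.000279), KIRREL2 3.74 ± 0.63 (edgeR adjusted p = 0.00545) and PARD3 0.79 ± 0.15 (edgeR adjusted p = 0.00741). WT1 was 5.34 ± 0.45 higher (edgeR adjusted p = 0.000628) and TCF21 5.90 ± 0.88 (edgeR adjusted p = 0.00356). The actin list ran the other way, with 3 of 16 higher and 7 lower in MLC, among them ACTN4 at -1.72 ± 0.38 (edgeR adjusted p = 0.0131), MYH9, a non-muscle myosin, at -2.97 ± 0.52 (edgeR adjusted p = 0.00597) and MYO1E at -3.27 ± 0.46 (edgeR adjusted p = 0.00298). NHERF1 and NHERF2 differed in opposite directions, at 3.07 ± 0.48 and -2.92 ± 0.29 (edgeR adjusted p = 0.00413 and 0.000958). Without MLC replicate 1 there were 17 higher and 8 lower, without MLC replicate 2 19 and 6, and without MesoT FCS replicate 1 26 and 11.

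The library labelled smooth muscle held almost no WT1. It had 1 WT1 count against 804 and 1352 counts in MesoT day 18, 879-fold lower with a counting interval of 158 to 34717. The spread of this lone library was taken from the other groups. Of 78 listed genes 12 rose and 4 fell, or 15.4% and 5.13%, where 5.08% of all 23049 genes rose and 3.58% fell. The median log2 fold change was 0.37 over the listed genes and -0.08 over all genes. No slit diaphragm gene was called by edgeR, with 2 higher and 3 lower at an unadjusted p under 0.05, 1 and 2 by DESeq2, and 1 and 0 by limma voom. LAMA5, LAMB2, NID1 and DAG1 rose by 1.70 ± 0.24, 2.14 ± 0.32, 1.91 ± 0.36 and 1.05 ± 0.22 on the log2 scale (edgeR adjusted p = 0.0221, 0.0230, 0.0345 and 0.0412). INF2 rose by 2.09 ± 0.19 (edgeR adjusted p = 0.0126) and MME by 1.81 ± 0.30 (edgeR adjusted p = 0.0272), and FOXC1 fell by 4.60 (SE 0.60, edgeR adjusted p = 0.0191). PODXL2 fell to 3.86 CPM, against 20.0 ± 4.70 CPM in MesoT day 18 (edgeR adjusted p = 0.0481). Without MesoT day 18 replicate 1 the counts were 24 higher and 8 lower, and with only these 2 groups in the fit none was called (13 and 8 at an unadjusted p under 0.05), while DESeq2 called 16 higher and 10 lower. The stratified epithelium markers of this library, at 2893 CPM, stood beside these values, and their part was not tested.

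MesoT day 22 and day 18 did not differ in any listed gene past the threshold. Of 77 tested, 0 rose and 0 fell by edgeR, DESeq2 or limma voom, with 1 higher and 1 lower at an unadjusted p under 0.05, and over all 22316 genes the shares were 0% and 0%, with 80 higher and 91 lower at an unadjusted p under 0.05. The median log2 fold change was -0.07 over the listed genes and -0.01 over all genes. For the 5 genes it was 0.01 ± 0.24 for NPHS1, 0.06 ± 0.39 for PODXL, 0.20 ± 0.39 for PTPRO, -0.59 ± 0.84 for SYNPO and 0.06 ± 0.19 for CD2AP. SYNPO had 413 and 120.3 CPM at day 22 and 671 and 129 CPM at day 18, so the days overlapped.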

How the data were processed

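Poly-A RNA was sequenced from 11 human libraries, and the authors deposited raw counts per Ensembl gene ID, in 7 single-library files and a table of 6 columns. TopHat2 2.0.13, Bowtie2 2.2.9, Subread 1.4.2 and featureCounts, with the build hg19, are named in the submitters' processing notes, with no roles. Not given in the sources used here are the annotation release and the strand setting, and sequencers and read lengths differed without a statement per sample.

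Each set was normalised by TMM and tested with edgeR 4.0.16 in R 4.3.3 by the quasi-likelihood test, after filterByExpr, in 1 fit over all its libraries. Calls are at p under 0.05 after Benjamini-Hochberg adjustment over all genes. DESeq2 1.42.0 and limma voom 3.58.1, other scaling and filters, a replicate block, each library left out and the day 18 counts of the table were alternatives. Scripts were tested on simulated data. Where a group had 0 counts, the fold is a bound that puts 3 counts in that group; where it had 1 to 3, it has a 95% exact binomial interval. List medians are the same with genes at 0 put at their bound. The members and lists were chosen with earlier results of these data known. Genes of the lists named in the text were a fixed set plus up to 4 per list and comparison by smallest p; some genes that this rule names are not reported here. KIRREL2, KIRREL3, SYNPO2L, PODXL2, CD34, FOXD1, ITGB1, PARD3, CNN1, ACTA2, TAGLN, UPK3B, LRRN4, PAX8, LRP2, EMX2, KDR, CDH5, PECAM1, LMOD1 and VIL1 were also named after their values were seen where that rule did not name them. Replicate numbers were not used to pair the samples, since no label says that a number marks a shared culture or batch. The 4 mouse and 3 chromatin samples were not analysed here. Of the gene IDs, 52181 of 63677 and 46802 of 56299 had a symbol.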

Additional observations from a re-analysis of the deposited data

How the results depend on the processing

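Counts of listed podocyte genes (higher and lower) changed with single libraries, and those of the smooth muscle library fell furthest with only the groups compared in the fit and with the replicate block. With each library left out in turn they ranged from 3 to 20 and 0 to 11 for MLC against MesoT day 18, from 8 to 20 and 12 to 20 for MesoT FCS against MesoT day 18, from 17 to 26 and 6 to 17 for MLC against MesoT FCS, from 10 to 24 and 4 to 8 for the smooth muscle library, and from 0 to 26 and 0 to 5 for MesoT-derived MLC against MesoT. DESeq2 called 32 higher and 8 lower in MesoT-derived MLC and 10 lower in the smooth muscle library. Against MesoT day 18 alone, MesoT-derived MLC gave 9 and 1. With only the groups compared in the fit, MesoT FCS gave 10 higher and the smooth muscle library 0 and 0 (13 and 8 at an unadjusted p under 0.05). Only genes counted alike gave 3 lower in MLC. The table's day 18 counts gave 7 lower in the smooth muscle library, among them LMX1B, which was not counted alike. The causes were not tested, beyond the fewer libraries or genes these settings use. RLE scaling and no filter on low counts kept every such count within 1.5 times.

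With the table's day 18 counts, NPHS1 gave log2 fold changes of -1.01 in MLC, -2.60 in smooth muscle and -6.04 in MesoT FCS. These values set 1 counting against the other and cannot be read as differences between the groups. With limma voom NPHS1 gave -2.00 for MesoT FCS against MesoT day 18 and 4.48 for MLC against MesoT FCS, and PTPRO of the smooth muscle library, which is at 0, gave -6.37, against -7.83 with DESeq2 and -8.59 with only the groups compared. With libraries left out, log2 fold changes in MLC against MesoT day 18 ranged from -5.82 to -4.50 for PTPRO, -3.60 to -1.21 for SYNPO and 0.28 to 0.68 for CD2AP. PTPRO ranged from -3.63 to 0.12 in MesoT FCS against MesoT day 18 and from -5.17 to -1.42 in MLC against MesoT FCS. For MesoT-derived MLC against MesoT, NPHS1 stayed between 3.97 and 4.27 and PODXL between 2.14 and 2.55. Total counts as library sizes moved 10 of 35 mean CPM values of the 5 genes by more than their SD or, for the lone smooth muscle library, by more than its counting interval: NPHS1 to 0.0419 in MesoT FCS and 0.338 in MesoT day 18, PODXL to 122 in smooth muscle, SYNPO to 171 in smooth muscle and 165 in MesoT-derived MLC, and CD2AP to 25.8 in MesoT FCS, 75.8 in smooth muscle, 53.3 in MesoT day 18, 62.5 in MesoT-derived MLC and 59.3 in MesoT day 22.

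The labels do not say that replicate numbers pair the samples. The correlations of same-numbered deviations from group means were 0.0107 to 0.0730 in the single-library files, and -0.00768 and -0.0636 for MesoT-derived MLC with MesoT day 18 and day 22. Days 22 and 18 deviated together (0.557), so that the 4 MesoT libraries of the table may not be 4 independent samples. With a replicate block the counts were 13 and 5 for MLC against MesoT day 18, 19 and 15 for MesoT FCS against MesoT day 18, 25 and 18 for MLC against MesoT FCS, 22 and 5 for MesoT-derived MLC, 2 and 2 for smooth muscle (LAMB2, INF2, FOXC1 and WT1), and 0 and 0 for day 22, and the replicate block moved NPHS1 of the smooth muscle library to 1.24. Of 110 calls of named genes, 68 lost their call under at least 1 alternative. Lost most often were ROBO2 (8 alternatives) and EZR (7) in MesoT-derived MLC against MesoT. BMP7 and SH3KBP1 in MLC against MesoT day 18 followed, with 6 each. Counts of 1 to 9 for NPHS1 and PTPRO in single libraries limit their precision.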
